A study of Mus musculus with 96 samples.

Results

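The microRNA hairpins followed here in mouse liver were mir-103-1 (MI0000587), mir-103-2 (MI0000588) and mir-107 (MI0000684). They were taken by hairpin accession from a table of 1187 hairpins, so the members are 3 of 1187. Their level was expressed as CPM, the estimated count scaled so that all hairpin counts of a library add up to the same fixed total. The fits below used edgeR's TMM scaling in addition, so fitted differences need not equal differences of mean CPM. The hairpin lengths recovered from the deposited FPKM values were 86, 86 and 87 nt, equal to the lengths of the RefSeq hairpins of these names. All 3 were detected in 96 of 96 libraries.

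The libraries are small RNA sequencing of whole liver from 96 C57BL/6 mice, 48 at 6 months and 48 at 10 months of age. Knock-in mice were heterozygous: they kept one endogenous mouse Htt allele and carried a second in which human HTT exon 1 with 20, 50, 92 or 140 CAG repeats had been inserted (Q20, Q50, Q92 and Q140). The allele is driven by the endogenous Htt locus rather than by an added promoter. WT mice, which have the endogenous alleles alone, were littermates from the Q20 or the Q50 line, and these WT mice together with Q20 served as controls. Each of the 24 groups, set by genotype and line, sex and age, held 4 mice, and each library came from 1 mouse.

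Library totals ran from 2195052 to 6662671 estimated counts. The kept males had a lower median total than the kept females at both ages, 4259130 against 5149570 at 6 months and 5229060 against 5840120 at 10 months. At 10 months 4 libraries stood apart by connectivity (a robust standardized measure of likeness to the other libraries, under -5) and were left out of the tests, and none did at 6 months. The Q92 mice among them were female replicate 1 and male replicate 2. The others were a WT male from each line, replicate 3 in both. Whole liver was measured, so fewer cells of a type and less RNA per cell cannot be told apart in any result. The tissue was not checked against liver markers, because other hairpins are given by accession with no name here.

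MicroRNAs are cut from hairpin precursors and pair through their seed, the bases near the 5′ end, with target messenger RNAs, which lowers their translation or stability. miR-103 and miR-107 are vertebrate microRNAs encoded inside introns of the pantothenate kinase genes, whose enzymes catalyse the first step of coenzyme A synthesis. In mouse liver and fat they are known for lowering insulin sensitivity, with caveolin-1, a component of the insulin receptor's membrane domains, among their targets.

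The mature sequences are shown because they set what the counts can tell apart. They were taken from RefSeq (GRCm38.p6), with the seed, bases 2 to 8, in capitals.

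miR-103-3p: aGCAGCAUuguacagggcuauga

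miR-107-3p: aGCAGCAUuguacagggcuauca

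miR-103-1-5p: gGCUUCUUuacagugcugccuug

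miR-103-2-5p: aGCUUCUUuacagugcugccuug

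miR-107-5p: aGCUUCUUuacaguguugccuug

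miR-16-5p: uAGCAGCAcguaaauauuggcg

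Positions were counted from 1 at the 5′ end. The 3p products of mir-103-1 and mir-103-2 are identical over all 23 bases. miR-103-3p and miR-107-3p share their first 21 bases and differ by 1 substitution, G22C, so a read of the 3p arm that ends before base 22 holds nothing to tell the 3 hairpins apart. The 5p products differ by G1A between mir-103-1 and mir-103-2 and by C16U between mir-103-2 and mir-107. Among 1679 mature mouse sequences in the RefSeq table, only miR-103-3p and miR-107-3p held the seed GCAGCAU. The last sequence, miR-16-5p, is printed for comparison: in 11 mature sequences, miR-15a, miR-15b and miR-16 among them, bases 2 to 7 were AGCAGC, the first 6 bases of miR-103-3p.

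The whole hairpins are shown because the counts were made per hairpin, both arms together. Capitals mark the 3p arm.

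mir-103-1: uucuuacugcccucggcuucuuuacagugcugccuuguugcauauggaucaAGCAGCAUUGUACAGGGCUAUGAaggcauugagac

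mir-103-2: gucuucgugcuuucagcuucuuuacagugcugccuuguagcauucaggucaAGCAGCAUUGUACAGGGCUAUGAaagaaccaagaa

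mir-107: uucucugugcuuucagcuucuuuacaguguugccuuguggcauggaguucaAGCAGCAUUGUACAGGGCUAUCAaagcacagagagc

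In GRCm38 (mm10), mir-103-1 lies on chromosome 11 at chr11:35782396-35782481 on the plus strand. mir-103-2 lies at chr2:131288052-131288137 on the plus strand, and mir-107 at chr19:34820687-34820773 on the minus strand. Their hosts are Pank3, Pank2 and Pank1 in the same order. In GENCODE vM21 each hairpin sat on the sense strand within intron 5 of the 6 introns of its host's principal transcript. Aligned end to end, the hairpins were 80.2% identical between mir-103-1 and mir-103-2, 80.9% between mir-103-1 and mir-107 and 83.9% between mir-103-2 and mir-107.

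The deposited counts of the 3 hairpins were not whole numbers in any of the 96 libraries at a tolerance of 0.0001, and the fractions cancelled within the family. The sum of mir-103-1 and mir-103-2 was whole within 0.01 in 1 of 96 libraries, whereas the sum of all 3 was whole in 96 of 96. The sources used here do not give how the authors divided reads among the 3 hairpins. Each hairpin's own level is therefore an estimate, and the fitted value of the sum of the 3 is given beside the main sex, age and Q140 values.

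Mean CPM over the 96 libraries was 236 for mir-103-1, 1636 for mir-103-2 and 1462 for mir-107. These levels ranked 98, 42 and 46 among the 1187 hairpins. Per length, the mean FPKM was 2741 for mir-103-1, 19025 for mir-103-2 and 16800 for mir-107, which puts mir-103-2 a little above mir-107 and mir-103-1 well below both. Together the 3 hairpins took from 0.176% to 0.591% of the counts of a library. The lowest single count was 358 for mir-103-1, where counting error alone gives a coefficient of variation of 5.28%. Over the sex and age classes that coefficient was 21.1% to 27.7% for mir-103-1 and 6.63% to 12.1% for mir-107 among the kept libraries.

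**Figure D1:**
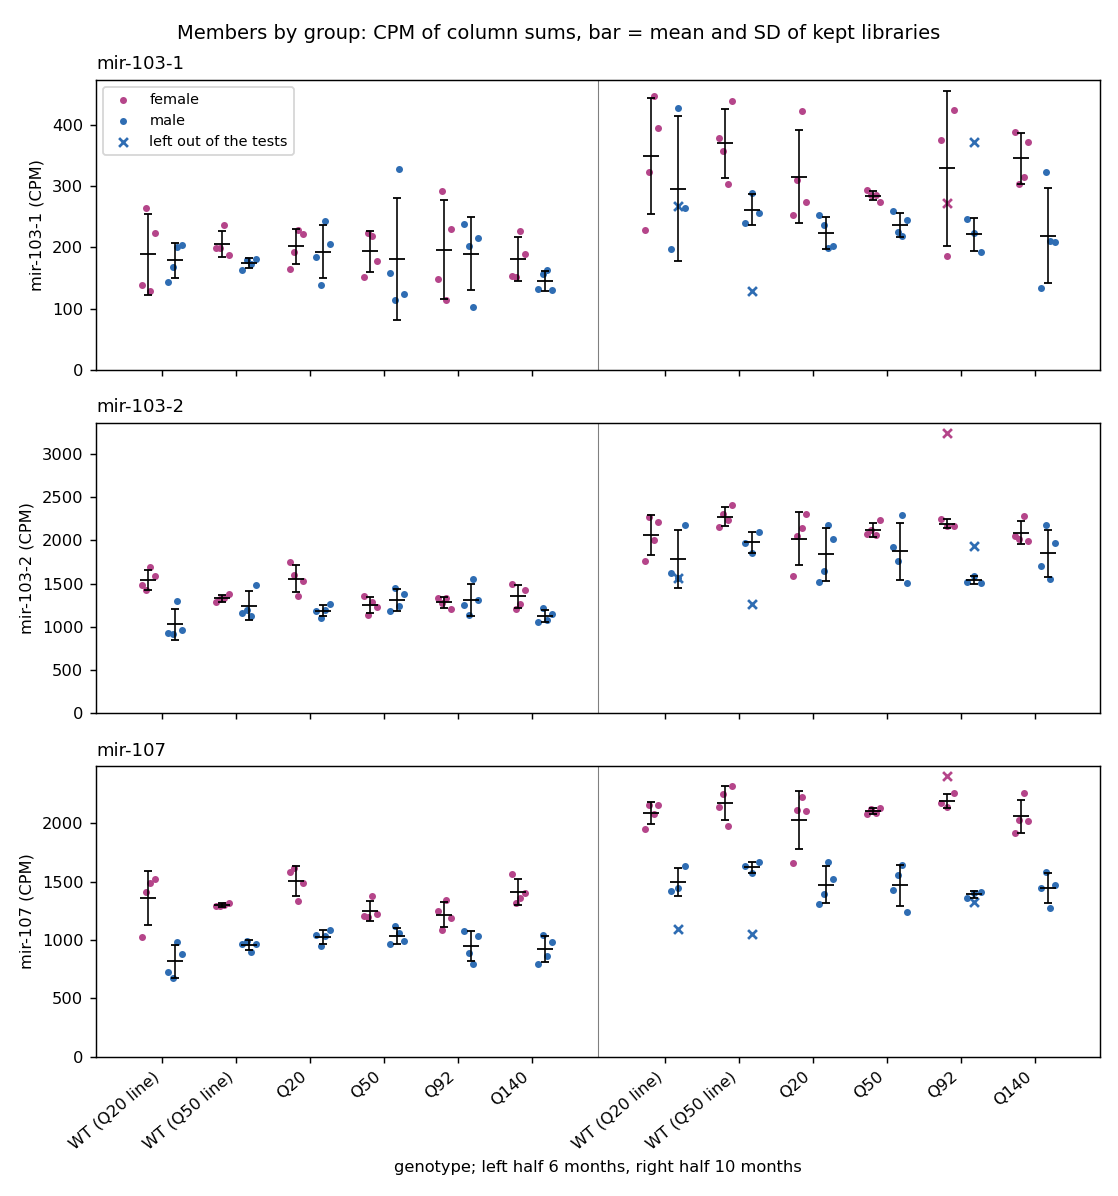
CPM (linear axis from 0) of mir-103-1, mir-103-2 and mir-107 in every library, by genotype, with 6 months on the left and 10 months on the right. Points are kept libraries, crosses the 4 libraries left out of the tests, and bars the mean and SD of the kept libraries; all kept mir-107 values at 10 months lie above all 6-month values of the same sex.

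mir-107 was lower in males than in females, at both ages and in every genotype. At 6 months the 24 females had a lowest mir-107 level of 1022 CPM, a median of 1326 and a highest of 1619. The 24 males had a lowest of 674 CPM, a median of 973 and a highest of 1118. Of the males, 16 of 24 lay below the lowest female, and 22 of 24 females lay above the highest male. At 10 months the 23 kept females ran from 1662 CPM over a median of 2122 to 2321, and the 21 kept males from 1242 over 1446 to 1672. The classes overlapped at their edges alone: 19 of 21 males lay below the lowest female, and 22 of 23 females above the highest male. The fitted male minus female difference of mir-107 was -0.47 ± 0.05 (log2, SE) at 6 months, a 1.39-fold lower level in males (edgeR quasi-likelihood test, adjusted p = 5.30e-11). At 10 months it was -0.48 ± 0.04, 1.40-fold lower, with an adjusted p of 1.97e-14.

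The sex comparison moved many hairpins. At 6 months, 38.2% of the 374 hairpins tested passed an adjusted p of 0.05, and 15.8% passed and were lower in males. At 10 months 45.4% of 383 passed, and 23.2% passed and were lower in males. Against that background, 2 of the 3 members passed at 6 months and all 3 at 10 months, each of them lower in males.

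mir-103-2 was lower in males by a smaller amount. Its median at 6 months was 1344 CPM in females, with a range of 1134 to 1746, and 1188 CPM in males, with a range of 921 to 1558. At 10 months the female median was 2153 CPM in a range of 1582 to 2405, and the male median 1766 CPM in a range of 1503 to 2294. The sexes overlapped widely, with 8 of 24 males below the lowest female at 6 months and 6 of 21 at 10 months. The fitted difference was -0.19 ± 0.04 at 6 months (edgeR, adjusted p = 2.48e-04) and -0.21 ± 0.05 at 10 months (adjusted p = 4.87e-04).

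mir-103-1, the least abundant hairpin, passed the sex test at 10 months but not at 6 months, and its ranges overlapped widely at both ages. The female and male medians were 195 and 170 CPM at 6 months, and 315 and 237 CPM at 10 months. The 6-month ranges of 114 to 292.5 CPM in females and 103 to 327 CPM in males covered each other almost fully. At 10 months the ranges were 186 to 447 CPM in females and 134 to 426 CPM in males. Of the males, 20 of 21 lay below the female mean, but only 1 of 21 below the lowest female. Of the females, 2 of 23 lay above the highest male. The fitted difference was -0.09 ± 0.11 at 6 months, which did not pass (edgeR, adjusted p = 0.565), and ranged from -0.21 to -0.06 when single libraries were left out, with a smallest adjusted p of 0.107. It was -0.44 ± 0.09 at 10 months, which passed (adjusted p = 9.83e-05). The change of the sex difference between the ages was tested itself, as a sex by age interaction. For mir-103-1 it was -0.32 ± 0.15, with an unadjusted p of 0.0328 and an adjusted p of 0.332 in edgeR. In that test 0% of 408 hairpins passed in edgeR and 2 passed in DESeq2. The interaction was -0.02 ± 0.06 for mir-103-2 and -0.02 ± 0.06 for mir-107. All 3 summed gave 0.02 ± 0.06, with 4 of 406 hairpins passing in that fit, and this value changed sign under other scalings. The median interaction of all hairpins was 0.039 in the summed fit and -0.022 in the main fit, so the summed and member values differ in scale.

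Summed before the fit, mir-103-1 and mir-103-2 were lower in males by -0.19 ± 0.04 (log2) at 6 months and -0.24 ± 0.05 at 10 months. All 3 hairpins summed to 1 row, a quantity that does not depend on how reads were divided among them, gave -0.32 ± 0.04 at 6 months (edgeR, adjusted p = 2.41e-08) and -0.36 ± 0.04 at 10 months (adjusted p = 3.51e-10). The CPM of the 3 together lay in males below the lowest female in 18 of 24 mice at 6 months and 10 of 21 at 10 months.

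Within genotypes the direction was the same for mir-107. In all 6 genotype and line classes the males had the lower mean log2 CPM of mir-107, by between -0.74 and -0.28 at 6 months and between -0.66 and -0.42 at 10 months. For mir-103-1 and mir-103-2 summed, males were lower in 4 of 6 classes at 6 months and 6 of 6 at 10 months. The column name of each library holds a tag, L5 to L8, called the lane tag here. The names do not say what it marks. They also hold a serial number and an LB tag, and neither was used. The male minus female difference was also taken within each lane tag that held at least 2 kept mice of each sex. For mir-107 it was -0.53 and -0.51 (log2 CPM) within tags L6 and L7 at 6 months, and -0.51, -0.50 and -0.55 within L5, L6 and L7 at 10 months. Tag L8 held too few libraries for a value, 3 at 6 months and 1 at 10 months. For mir-103-1 at 6 months the same differences were -0.37 within L6 and -0.03 within L7. The differences within genotype and line classes were not adjusted for the lane tag. In 6-month WT mice of the Q20 line, the class at -0.74 for mir-107, all females had L7 and all males but replicate 3 had L6. In 6-month WT mice of the Q50 line, at -0.45, all females had L6 and all males but replicate 3 had L7.

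Because male libraries were shallower, the fit was repeated on libraries within the range of totals that both sexes share. Totals were not matched within that range, so depth was not equalized and its part was not tested. With 24 males and 13 females at 6 months mir-107 differed by -0.50 ± 0.06, and with 18 males and 17 females at 10 months by -0.51 ± 0.04.

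The balance between mir-107 and mir-103 also differed between the sexes. This ratio, mir-107 over the sum of mir-103-1 and mir-103-2 in the same library, is free of any scaling factor. At 6 months the females had a median ratio of 0.848 in a range of 0.629 to 0.965, and the males a median of 0.703 in a range of 0.479 to 0.765. At 10 months the medians were 0.856 in a range of 0.779 to 0.980 and 0.724 in a range of 0.634 to 0.827. All 24 males at 6 months and all 21 at 10 months lay below the female mean on the log2 scale. The difference in mean log2 ratio was -0.30 ± 0.04 (SE) at 6 months, with a permutation p of 1e-05, the smallest that 100000 resamples can give (two-sided, mice permuted within genotype and line, adjusted p = 9e-05 over 18 ratio tests). At 10 months it was -0.25 ± 0.03, with the same permutation p and adjusted p. Within lane tags it ran from -0.31 to -0.13. On libraries within the shared range of totals, not matched for depth, it was -0.31 ± 0.04 and -0.23 ± 0.03. As a description, the log2 ratio and the log2 library total had a Pearson r of 0.25 in 24 females and 0.35 in 24 males at 6 months, and of 0.20 in 23 females and 0.53 in 21 males at 10 months. The r was above 0 in all 4 classes, and males had both the lower totals and the lower ratios. The part of depth and of the division of reads in the ratio was not tested.

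**Figure D2:**
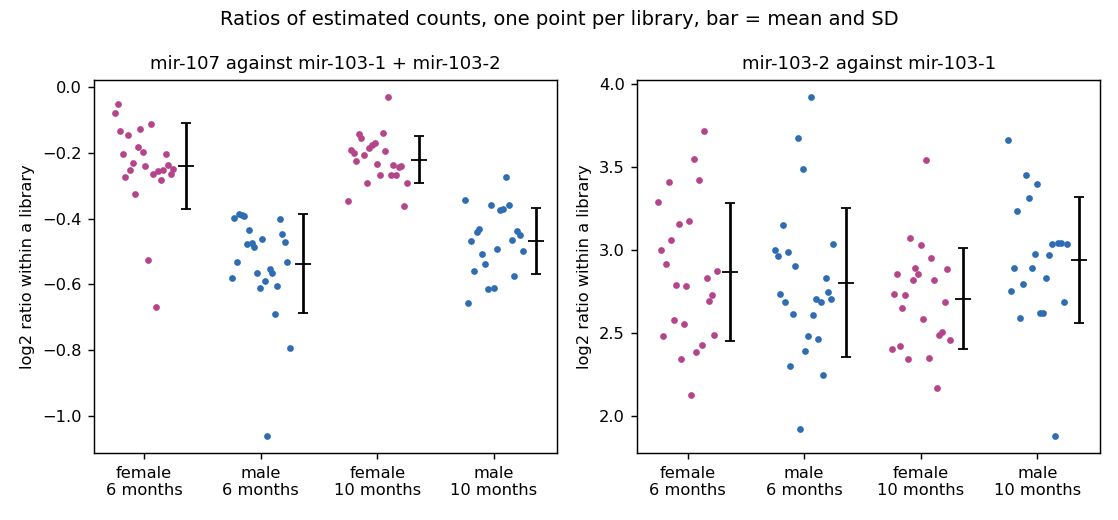
Log2 ratios of estimated counts within a library, 1 point per kept library, by sex and age, with the mean and SD beside each class. The left panel shows mir-107 against the mir-103 sum, with male means of -0.54 and -0.47 under female means of -0.24 and -0.22; the right panel shows mir-103-2 against mir-103-1, where the 4 classes overlap and values run from 1.88 to 3.92.

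mir-103-2 and mir-103-1 yield the same 3p sequence, and their ratio varied far more. It ran from 3.67 to 15.2 over the 96 libraries, with a median of 6.98. Its SD on the log2 scale was 0.39 in the kept libraries, against 0.18 for the mir-107 to mir-103 ratio. mir-103-1 took 12.6% ± 2.96 (SD, n = 96) of the mir-103 sum. The log2 ratio did not pass the permutation test in any of 9 comparisons. For sex it was -0.06 ± 0.12 at 6 months (permutation p = 0.629, adjusted p = 0.871) and 0.23 ± 0.10 at 10 months (permutation p = 0.0423, adjusted p = 0.174), higher in males at 10 months. The age difference was -0.02 ± 0.08 (permutation p = 0.865).

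All 3 hairpins rose between 6 and 10 months. The comparison covered both sexes and all genotypes, 44 kept libraries at 10 months against 48 at 6 months, each from a different mouse. The lane tags do not say whether both ages were sequenced together. The serial numbers in the column names form separate blocks for 6 and 10 months. Age and sequencing run therefore cannot be told apart. The fitted 10 minus 6 month difference was 0.48 ± 0.08 (log2, SE) for mir-103-1, 0.48 ± 0.03 for mir-103-2 and 0.52 ± 0.03 for mir-107, or 1.40-, 1.40- and 1.44-fold. The adjusted p in edgeR was 4.58e-08, 4.36e-25 and 6.04e-27. In this comparison 58.6% of 408 hairpins passed, and 31.6% passed and were higher at 10 months. All 3 summed gave 0.53 ± 0.03. The scaling was computed anew for that fit, where the median difference of all hairpins was 0.045, against 0.013 in the main fit. The summed value is therefore not on the same scale as the member values.

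Among the kept libraries the ages did not overlap for mir-107 within either sex. The highest 6-month female was at 1619 CPM and the lowest 10-month female at 1662. In males the corresponding values were 1118 and 1242 CPM, but among the left-out 10-month males both WT mice, at 1048 and 1095 CPM, lay below the highest 6-month male. For mir-103-2, 22 of 23 females and 16 of 21 males at 10 months lay above the highest 6-month mouse of their sex. For mir-103-1 these counts were 16 of 23 females and 1 of 21 males, so its male ranges overlapped.

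Fitted within each sex, the age difference of mir-107 was 0.53 ± 0.04 in females and 0.52 ± 0.05 in males. That of mir-103-2 was 0.50 ± 0.04 and 0.48 ± 0.05. That of mir-103-1 was 0.64 ± 0.10 in females and 0.33 ± 0.11 in males, and the test of that difference is the interaction given above. Mean log2 CPM was higher at 10 months in 12 of 12 classes of sex, genotype and line for each of the 3 hairpins. The mir-107 to mir-103 ratio differed between the ages by 0.05 ± 0.04 on the log2 scale (permutation p = 0.0794, adjusted p = 0.238). That SE pools the sexes, whereas mice were permuted within sex.

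The size of the age difference depended on the scale, and its direction did not. With column sums and no scaling factor the median difference of all hairpins moved from 0.01 to 0.13 (log2), and mir-107 from 0.52 to 0.64. Relative to that median mir-107 was 0.51 higher under both. The share of passing hairpins that were higher at 10 months was 54.0% with the main scaling and 70.3% with column sums.

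**Figure D3:**
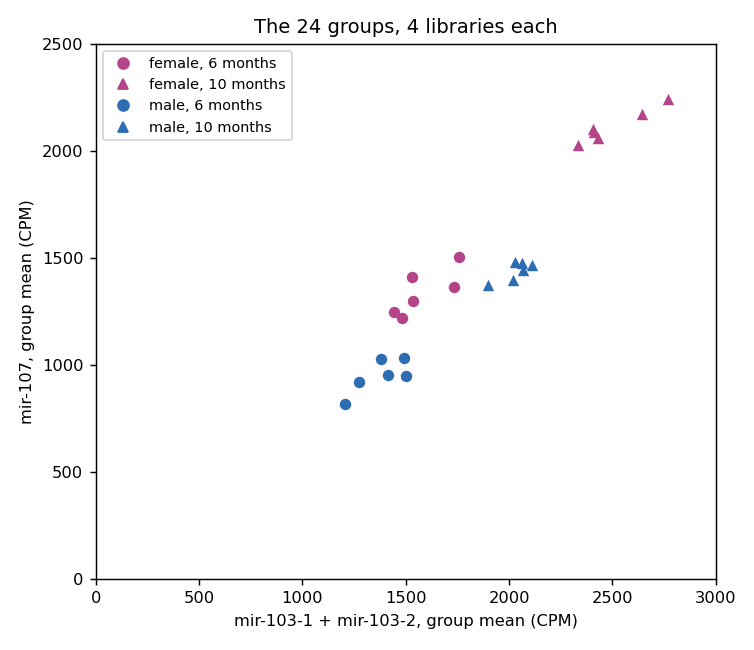
Mean CPM of mir-107 (vertical axis) against that of mir-103-1 and mir-103-2 summed (horizontal axis) in the 24 groups, 4 libraries each, on linear axes from 0. Circles are 6 months and triangles 10 months; the mir-107 means run from 816 CPM in 6-month males to 2245 CPM in 10-month females, and female groups sit higher on the mir-107 axis than male groups of the same age.

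The 24 groups fell into classes of sex and age for mir-107. With all 4 libraries of each group, its mean ran from 816 ± 141 CPM (SD, n = 4) in 6-month WT males of the Q20 line to 2245 ± 117 CPM in 10-month Q92 females. The 6 lowest groups were the 6-month males and the 6 highest the 10-month females, and between them the 6-month females and 10-month males mixed. Of the 23 gaps between neighbouring groups, 3 were wider than the pooled SD of the neighbours. The widest, 521 CPM, lay between Q20 females of 6 months at 1506 ± 127 CPM and Q20 females of 10 months at 2027 ± 249 CPM. For mir-103-2, 2 of 23 gaps exceeded the pooled SD, and for mir-103-1 only 1 did. The groups were sorted by mean first, so neighbours are close by construction. These counts do not show whether groups differ.

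No member passed in any genotype comparison. In Q140 livers at 10 months, the longest repeat at the later age, mir-107 was at 1921, 2032, 2262 and 2024 CPM in the 4 females. The 12 control females ran from 1662 over a median of 2130 to 2321 CPM. The 4 Q140 males were at 1446, 1583, 1277 and 1474 CPM, beside 10 kept control males from 1309 over 1547 to 1672 CPM. All Q140 females and 3 of 4 Q140 males thus lay within the range of their controls. The fitted Q140 minus control difference of mir-107 was -0.09, with a 95% interval of -0.19 to 0.01 (edgeR, adjusted p = 0.446), and that of all 3 summed -0.08 ± 0.06. In that comparison 1.31% of 383 hairpins passed.

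At 6 months the 4 Q140 females had mir-107 at 1564, 1314, 1364 and 1402 CPM, and the 12 control females ran from 1022 over 1374 to 1619. The Q140 males were at 796, 1041, 858 and 981 CPM, and the 12 control males ran from 674 over 964 to 1085. The groups overlapped in full. The fitted difference was 0.05, with an interval of -0.09 to 0.20, and 0% of 374 hairpins passed. All 3 summed differed by -0.01 ± 0.06, which changed sign under other scalings.

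mir-103-2 in Q140 at 10 months was at 2055, 2019, 2282 and 1993 CPM in females and at 1700, 2174, 1557 and 1964 CPM in males. The control medians were 2181 and 1913 CPM. Its fitted difference was -0.05 with an interval of -0.19 to 0.08, and at 6 months -0.01 with an interval of -0.13 to 0.11. mir-103-1 in Q140 at 10 months was at 388, 304, 315 and 372 CPM in females and at 134, 323, 210 and 209 CPM in males, with control medians of 340 and 247 CPM. Its difference was -0.14 with an interval of -0.39 to 0.11 at 10 months and -0.26 with an interval of -0.58 to 0.06 at 6 months, the widest intervals of the 3.

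With CAG length as a number, set to 7 for WT, the slope per 100 repeats at 10 months was -0.07 ± 0.04 (log2, SE) for mir-107, -0.06 ± 0.05 for mir-103-2 and -0.15 ± 0.09 for mir-103-1. The adjusted p was 0.324, 0.542 and 0.401 in edgeR, while 2.09% of 383 hairpins passed. All 3 summed gave -0.08 ± 0.04 (adjusted p = 0.276). At 6 months the slopes were 0.03 ± 0.05, 0.01 ± 0.04 and -0.13 ± 0.12. The 14 genotype comparisons within an age include Q50 and Q92 against controls, the CAG slopes, and comparisons within lines and between WT mice. Their 42 fitted values, log2 differences and slopes per 100 repeats together, ran from -0.29 to 0.22. Both ends came from Q20 against WT of its own line, mir-103-1 at 10 months and mir-107 at 6 months. For Q92 against controls 0.267% of hairpins passed at 6 months and 1.04% at 10 months. Of the 42 values 0 passed in edgeR, 2 had an unadjusted p under 0.05, and the smallest adjusted p was 0.324. Those 2 compared controls with controls. mir-107 differed by 0.22 ± 0.09 between Q20 and WT of its own line at 6 months (edgeR, unadjusted p = 0.0143). mir-103-2 differed by 0.19 ± 0.09 between WT of the Q50 line and WT of the Q20 line at 10 months (edgeR, unadjusted p = 0.0385). None of the 42 passed in DESeq2 or under any other alternative run, where the smallest adjusted p was 0.149. These comparisons share control mice within an age. On counts simulated for Q140 against controls at 10 months, edgeR recovered 90.3% of 2-fold and 74.2% of 1.5-fold changes among 377 hairpins. At the smallest fold simulated it recovered 52.5%. Changes were planted in 200 hairpins at once in that simulation, whereas 1.31% of 383 hairpins passed in the data. The adjustment is more lenient where many hairpins change, so recovery in the genotype tests may be lower than these shares. The fitted Q140 differences of all 3 hairpins at 10 months were smaller than every fold simulated. Recovery of changes as small as these was therefore not tested. Combined over both ages, none of the 12 member values passed in edgeR either, with a smallest adjusted p of 0.595, where 0.273% of 366 hairpins passed for Q92 and 0.546% for CAG length.

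The mir-107 to mir-103 ratio did not pass in any of the 6 tests of Q50, Q92 and Q140 against controls. The values nearest the threshold were 0.10 ± 0.08 for Q140 at 6 months (log2, permutation p = 0.0484, adjusted p = 0.174) and 0.07 ± 0.05 for Q92 at 10 months (permutation p = 0.0349, adjusted p = 0.174). These SEs pool the sexes and so hold the sex difference, whereas mice were permuted within sex. With the 4 left-out libraries included, the Q92 value was -0.01 ± 0.08 (permutation p = 0.805). It passed without WT female replicate 1 of the Q20 line, at 0.08 (adjusted permutation p = 0.0414).

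**Figure D4:**
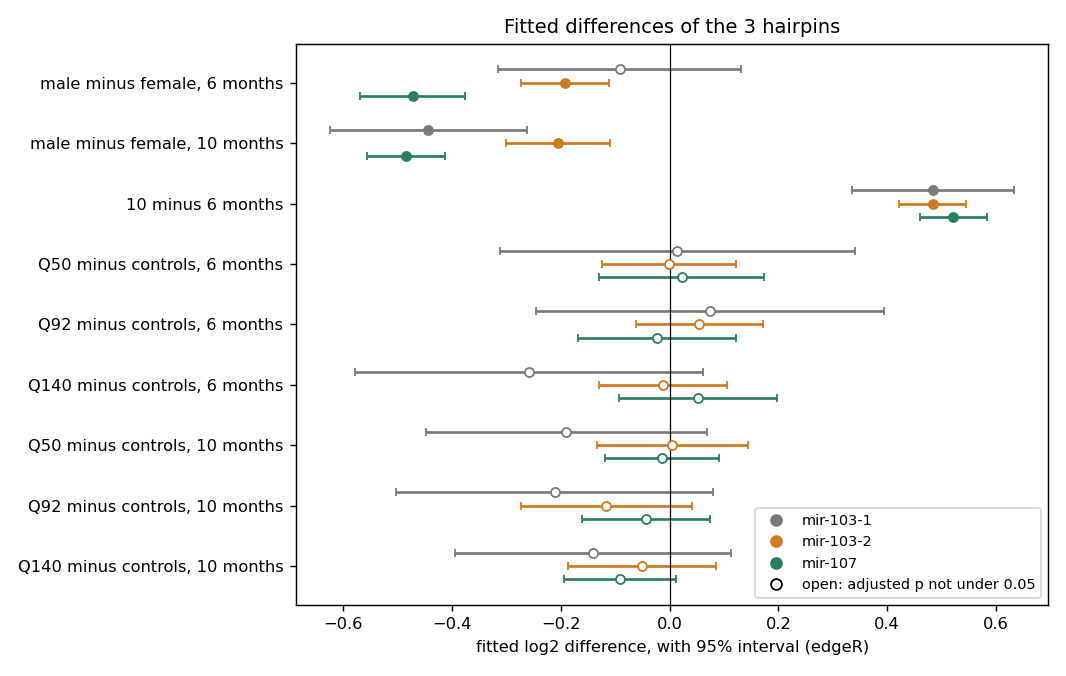
Fitted log2 differences of the 3 hairpins in edgeR (horizontal axis) for sex, age and each repeat length against controls (rows). Bars are 95% intervals from the SE by a normal approximation, slightly narrower than the F test would give. Open symbols did not pass an adjusted p of 0.05. The sex and age symbols are filled, from -0.48 to 0.52, except mir-103-1 for sex at 6 months, and the genotype symbols are all open.

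The members followed each other across the groups. Over the 24 group means of log2 CPM, Pearson r was 0.89 between mir-103-1 and mir-103-2, 0.88 between mir-103-1 and mir-107 and 0.94 between mir-103-2 and mir-107. These are descriptions over groups that share library totals, and that differ in sex and age. Among 362 other hairpins, the 4 with the pattern most like the mir-103 sum were MI0000581, MI0000558, MI0009991 and MI0000623, with r from 0.94 to 0.96. The 4 most like mir-107 were MI0000405, MI0000690, MI0000623 and MI0004611, also with r of 0.96. MI0000623, a hairpin of 98 nt with group means between 675 and 1125 CPM, stood in both lists. The sources used here pair none of these accessions with a name.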

How the data were processed

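Per the study's methods, small RNA was sequenced as short single-end reads, base-called with CASAVA 1.8.2 (per the labels), placed on mm10 with STAR and counted with HTSeq. The authors deposited estimated counts per hairpin and FPKM values, 1 column per library. HTSeq gives whole counts by default, whereas the deposited values of the members are fractional, and the step that made the fractions is not known here. FPKM served for lengths and levels per length. The members were picked by accession, and they and the lists were chosen with earlier results of these data known. Estimated counts were rounded and fitted with edgeR 4.0.16 (TMM, quasi-likelihood F test, R 4.3.3) over all hairpins that reached 1 CPM in 8 or more libraries, and p-values were adjusted by Benjamini-Hochberg (threshold 0.05). Genotype fits had sex and lane tag as covariates, sex fits had genotype and line and lane tag, and the age fit had sex and genotype and line. Libraries with connectivity under -5 were left out. Replicates are separate mice as the labels number them. Ratios were tested by permutation within strata, 100000 resamples, with distances taken from the mean over permutations. The SE printed with a ratio difference ignores the strata, so it is not the error that the permutation used. The rule named the members and, for the mir-103 sum and mir-107, the 4 hairpins with the highest correlation over groups. The methods were tested on simulated data. Alternatives were other scalings, DESeq2 1.42.0 on raw and outlier-replaced counts, no filter on abundance, other controls, no lane tag, all libraries, a replicate block, and leaving out each library. Fits within the shared range of library totals, within each sex, and with all 3 hairpins summed were added after seeing the data. The cell marker and pathway lists need hairpin names and were not run.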

Additional observations from a re-analysis of the deposited data

Results flagged for a closer look

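Within the groups of 4 libraries, 96 combinations of a group and a measure were examined for 1 library far from the other 3, and 7 were found. Chance gives about 1 in 20, or 4.8 here. For mir-103-2, Q92 female replicate 1 at 10 months was at 3237 CPM while the other 3 lay between 2163 and 2249, and this library was left out of the tests. WT male replicate 4 of the Q20 line at 10 months was at 2171 CPM, above 1564 to 1617, and WT male replicate 3 of the Q20 line at 6 months at 1293 CPM, above 921 to 963. For mir-107, Q50 female replicate 3 at 6 months was at 1373 CPM, above 1196 to 1224. WT male replicate 3 of the Q50 line at 10 months, also left out of the tests, was at 1048 CPM, below 1571 to 1666. The log2 ratio of mir-107 to mir-103 was -0.029 in WT female replicate 1 of the Q20 line at 10 months, above -0.27 to -0.24, and -0.67 in WT female replicate 1 of the Q20 line at 6 months, below -0.28 to -0.25. Among the flagged libraries, Q50 female replicate 3 and WT male replicate 3 of each line had a lane tag unique within their group. The others shared theirs with another library of the group. The part of the tag was not tested.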

How the results depend on the processing

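The sex and age results of mir-103-2, mir-107, the mir-103 sum and the 3 hairpins summed, and the 10-month sex and the age result of mir-103-1, kept their direction and passed under every alternative run and without any single library. Without 1 library, mir-107 ran from -0.54 to -0.46 for sex at 6 months, from -0.52 to -0.46 for sex at 10 months and from 0.49 to 0.53 for age. The values that changed direction did not pass before or after the change. With Q20 alone as controls, Q140 at 10 months was 0.018 for mir-103-1, against -0.14, and Q140 at 6 months was -0.056 for mir-107. With WT left out, the CAG slope was 0.012 at 10 months for mir-103-1, against -0.15, and at 6 months -0.017 for mir-103-2 and -0.041 for mir-107. Without the lane tag the 6-month slope of mir-103-2 was -0.014. The sex by age interaction of mir-103-2 and of mir-107 was 0.022 and 0.026 with DESeq2 size factors, 0.022 and 0.026 in the DESeq2 test, 0.023 and 0.027 on outlier-replaced counts, and 0.024 for mir-107 with the mir-103 hairpins summed. The interaction of all 3 summed was -0.039 with column sums, -0.032 without the 10 most abundant hairpins, -0.062 with no abundance filter and -0.048 with all libraries. Q140 at 6 months for all 3 summed was 0.0085 with DESeq2 size factors, 0.0055 with column sums, 0.012 without the 10 most abundant hairpins, 0.0094 with no abundance filter, 0.0083 in the DESeq2 test, 0.0029 on outlier-replaced counts, 0.037 with WT alone as controls and 0.018 with only Q140 and controls fitted. The mir-107 to mir-103 ratio of Q92 at 10 months was -0.013 with all libraries. The cause was not tested. Without 1 library, the interaction ran from -0.038 to 0.023 for mir-103-2 and from -0.031 to 0.031 for mir-107 and from -0.062 to 0.029 for all 3 summed, Q140 at 6 months from -0.042 to 0.022 for mir-103-2 and from -0.035 to 0.032 for all 3 summed, the mir-107 to mir-103 ratio of Q92 at 10 months from 0.041 to 0.088, the mir-103-2 6-month slope from -0.0079 to 0.032 and the age difference of the mir-103-2 to mir-103-1 ratio from -0.036 to 0.0071. The sex difference of that ratio at 10 months ran from 0.20 to 0.29, and passed without Q92 female replicate 3 (0.27, adjusted permutation p = 0.0444) or without WT male replicate 2 of the Q20 line (0.29, adjusted permutation p = 0.0408). With column sums that leave out the 10 most abundant hairpins, 59.3% of the hairpins passing for sex at 10 months were higher in males, against 48.9% in the main fit.

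The replicate numbers showed no sign of pairing the mice. Deviations of same-numbered libraries of different groups had a median correlation of -0.0144 at 6 months and -0.00252 at 10 months. Of these correlations 20.8% and 25.3% were over 0.1, against 21.7% and 25.7% for libraries with different numbers. With the replicate block, mir-107 differed by -0.48 for sex at 6 months, -0.48 at 10 months and 0.52 for age, and no call changed.

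Counting error was largest for mir-103-1, 5.28% at its lowest count. That was well below its coefficient of variation of 21.1% to 27.7% within the sex and age classes. Division of reads among the 3 hairpins limits each hairpin's own value and both ratios, and only their sum is free of it. Fits without 1 library used all other libraries for the spread, and their ratio tests used 10000 resamples.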
